A study of Homo sapiens with 12 samples.

Results

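The JAK, STAT and SOCS signalling genes were taken as 10 genes matched by symbol in the deposited count table: JAK1, JAK2, STAT3, STAT5A, STAT5B, SOCS1, SOCS2, SOCS3, CISH and PIM1. All 10 were found among the 26481 genes with complete counts, and all 10 passed the filter on low counts that left 14164 tested genes. The genes were chosen by symbol, with earlier results of these data known, and which measured values weighed in that choice is not recorded, so each adjusted p below describes its gene and supports nothing about the list.

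HEL is an established human AML cell line with erythroid and megakaryocytic features, and it carries an activating JAK2 mutation. All cells carried a barcode library. NT cells (n = 2) were left untreated in DMSO, Doxo relapses (n = 3) had received 1.8 µM doxorubicin, Doxo+Cyta relapses (n = 3) 1.8 µM doxorubicin and 6 µM cytarabine, and Doxo+Cyta+DAC relapses (n = 4) the same doses of both with 0.1 µM decitabine, all for 72 to 74 h. Doxorubicin poisons topoisomerase II, cytarabine is a nucleoside analogue that blocks DNA synthesis, and decitabine is an inhibitor of DNA methylation. The treated cultures regrew for about 30 days from the few cells that survived, so each relapse library holds the progeny of those survivors, and no library was taken during drug exposure. The sample descriptions list no such time for NT. The counts are summed over each gene and carry no information on the mutant JAK2 allele, on protein or on phosphorylation.

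Cytokine receptors without kinase activity of their own signal through bound Janus kinases (JAK1, JAK2, JAK3 and TYK2). These kinases phosphorylate STAT proteins, which dimerise and bind DNA at their target genes. Among these targets are genes for the SOCS proteins and CISH, which bind receptors or JAKs and dampen the signal. In erythroid cells the erythropoietin receptor uses JAK2 and mainly STAT5.

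STAT dimers bind a palindrome spelled TTCNNNGAA, which reads the same on both strands, and the 300 bases from 250 before to 50 after each gene start were searched for it on GRCh38. It occurred 4 times in the CISH window and 0 times in the windows of JAK1, JAK2, STAT3, STAT5A, STAT5B, SOCS1, SOCS2 and PIM1. In RefSeq windows of the same length, 7.66% of 35116 held the palindrome at least once and 0.0199% (7 windows) held it 4 times or more. The 250 bases before the CISH gene start are shown, since CISH is the STAT5 target among these genes with the most matches, with the matches in capitals and in the direction of transcription:
CISH (GRCh38, chr3:50611832-50612081, minus strand): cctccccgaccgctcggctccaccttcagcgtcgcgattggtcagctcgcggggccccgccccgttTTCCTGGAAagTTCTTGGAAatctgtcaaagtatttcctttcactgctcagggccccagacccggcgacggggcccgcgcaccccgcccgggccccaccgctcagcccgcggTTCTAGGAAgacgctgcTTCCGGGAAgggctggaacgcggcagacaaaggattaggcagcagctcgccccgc
The CISH matches began 184, 173, 72 and 55 bases before the gene start. The dinucleotide CG, the site that DNA methyltransferases modify, ranged from 5 times in the STAT5A window and 11 times in that of SOCS2 to 54 times in that of STAT5B, among the windows reported here. It occurred 45 times in the window of JAK1, 34 times in that of CISH and 30 times in that of JAK2, against a median of 14 in the RefSeq windows. A match of letters is a description and does not show that a factor binds there, and methylation was not measured here.

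Total counts per library lay between 12763582 and 19106235. Values are given as CPM, the counts of each library scaled to a common total with the TMM method, with the spread as SD over libraries. A floor of 3 counts corresponded to 0.157 to 0.235 CPM, below every value of the 10 genes, and covers counting error only. Doxo+Cyta replicate 20 stood apart from the other libraries. In it, 18.1% of counts lay in genes with at least 5000 bases of exon against 22.2% to 24.8% elsewhere, and 13.3% lay in genes under 1000 bases against 8.43% to 10.6% elsewhere. For the 10 genes, calls that changed when replicate 20 was left out are stated with the gene. Doxo replicate 4 also differed from the other Doxo libraries. Its chi-square per gene, a measure of how far the counts of a pair of libraries differ, was 29.7 and 27.3 against replicates 5 and 6. Between replicates 5 and 6 it was 3.10.

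JAK2 fell in the Doxo+Cyta+DAC relapses and differed from NT in neither of the other regimens by the test. The gene lies at chr9:4985245-5128183 on the plus strand (GRCh38, as for every position given). It measured 409 and 442 CPM in NT, 374, 588 and 571 CPM in Doxo replicates 4, 5 and 6, and 476, 272 and 481 CPM in Doxo+Cyta replicates 19, 20 and 22. In Doxo+Cyta+DAC replicates 30 to 33 it measured 165, 152, 140 and 190 CPM. Among the Doxo libraries, replicate 4 lay below both NT libraries and replicates 5 and 6 lay above them. The 4 libraries with decitabine were the lowest of the 12 and did not overlap with any other group, and the lowest of the other libraries was Doxo+Cyta replicate 20. The mean was 425 ± 23.3 CPM in NT (n = 2) and 162 ± 21.6 CPM in Doxo+Cyta+DAC (n = 4). This was 2.63-fold lower, and edgeR gave a log2 fold change of -1.40 (SE 0.21) with an adjusted p of 0.000148. Against Doxo the change was -1.66 on the log2 scale (SE 0.19, adjusted p = 8.72e-06), and against Doxo+Cyta it was -1.34 (SE 0.19), or -1.57 when replicate 20 was left out, with an adjusted p of 4.36e-05 over all libraries. These comparisons share the Doxo+Cyta+DAC libraries and are not independent. Bulk libraries cannot tell fewer cells that express a gene from less RNA per cell, here or for any gene below.

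**Figure D1:**
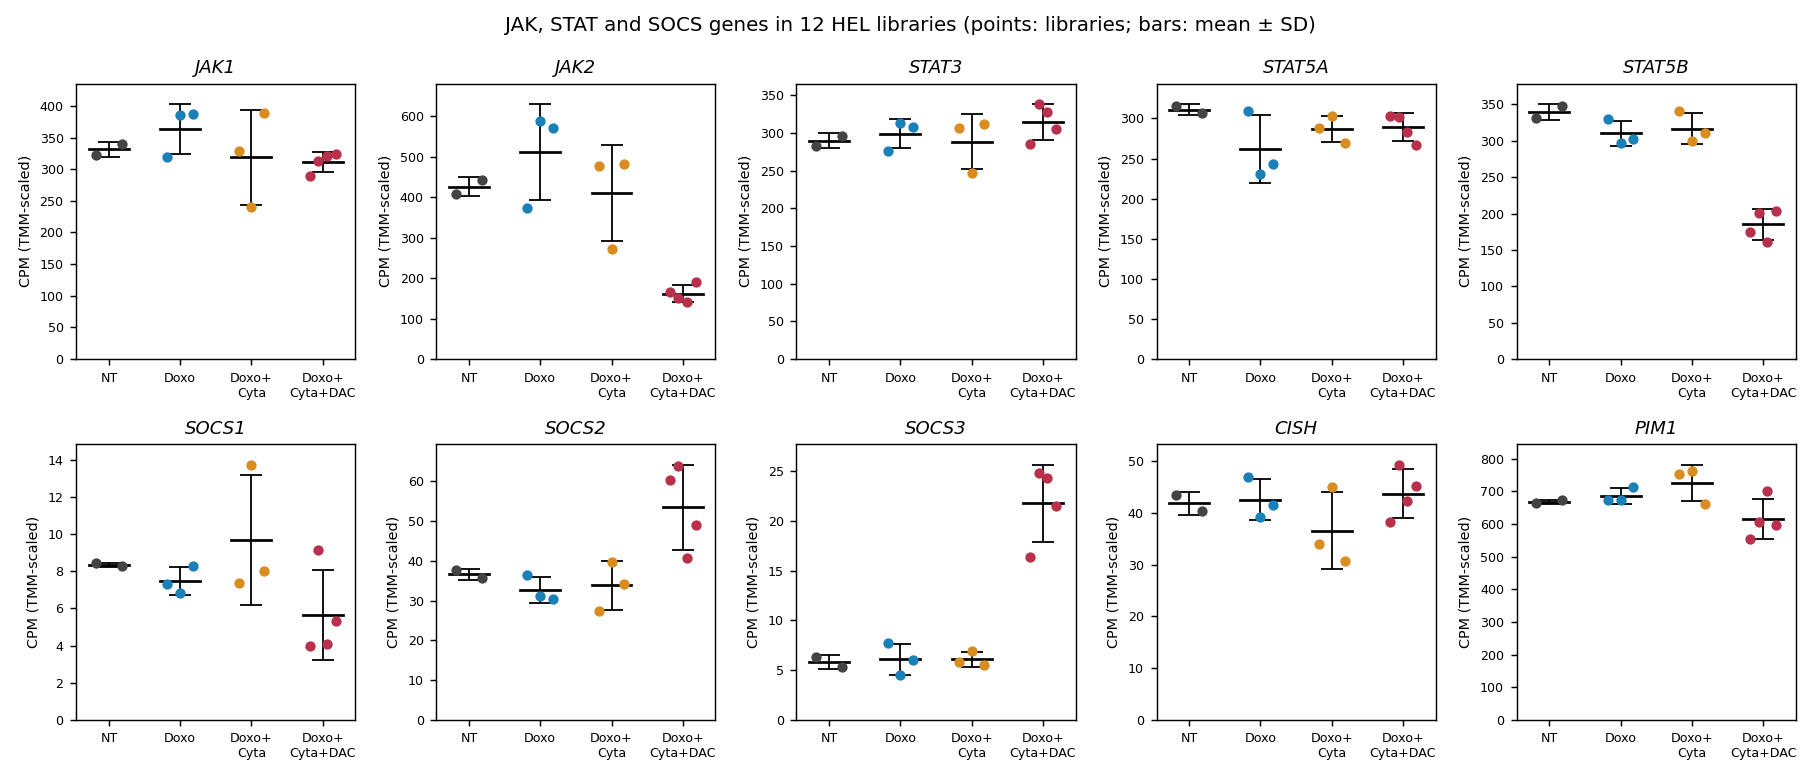
TMM-scaled CPM (vertical axes, from 0) of the 10 genes in the 12 HEL libraries by group; points are libraries, the wide bars are group means and the whiskers SD. The 4 Doxo+Cyta+DAC libraries lie at 140 to 190 CPM for JAK2 and at 161 to 204 CPM for STAT5B, below all other libraries, and at 16.4 to 24.8 CPM for SOCS3, above all others.

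JAK1, which most cytokine receptors of the gp130, interferon and common gamma chain families use, did not differ by the test (chr1:64833223-64966504, minus strand). Its libraries lay between 289 and 324 CPM in Doxo+Cyta+DAC and at 323 and 340 CPM in NT, and the groups overlapped. The log2 fold change relative to NT was -0.09 with a 95% interval of -0.42 to 0.24 (adjusted p = 0.656). Relative to Doxo it was -0.22 (adjusted p = 0.166), which became adjusted p = 0.0409 without Doxo+Cyta replicate 20. The other kinases, which are not among the 10 genes, moved less than JAK2 in the same libraries: relative to NT, JAK3 had a log2 fold change of 0.25 (SE 0.15, adjusted p = 0.203) and TYK2 one of -0.26 (SE 0.10, adjusted p = 0.0516, called in 11 of the 21 alternative fits). TYK2 was called lower relative to Doxo+Cyta, at -0.34 (SE 0.09, adjusted p = 0.00598).

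Per length, in TPM (counts divided by exon length and scaled to a common total), JAK2 made up 33.3% and 34.1% of the summed level of the 4 JAK genes in NT. The share was 31.3%, 41.0% and 40.6% in Doxo and 34.3%, 24.9% and 34.6% in Doxo+Cyta, the low value again being replicate 20. In Doxo+Cyta+DAC it was 17.6%, 14.9%, 15.2% and 20.5%, below the lowest share in any other library. Means were 33.7 ± 0.583% in NT and 17.0 ± 2.60% in Doxo+Cyta+DAC.

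STAT5B fell and its paralog STAT5A did not pass the test. Both encode STAT5 proteins that erythropoietin signalling activates, and they lie close together on chromosome 17 (STAT5B at chr17:42199177-42276406, minus strand, and STAT5A at chr17:42287547-42311942, plus strand). STAT5B measured 332 and 347 CPM in NT, 330, 297 and 303 CPM in Doxo, and 341, 299 and 310 CPM in Doxo+Cyta. With decitabine it measured 175, 201, 161 and 204 CPM, and these 4 libraries lay below the other 8. The log2 fold change was -0.88 relative to NT (SE 0.11, adjusted p = 3.58e-05), -0.74 relative to Doxo (SE 0.10) and -0.78 relative to Doxo+Cyta (SE 0.10). STAT5A measured 316 and 306 CPM in NT, 310, 231 and 244 CPM in Doxo, 288, 303 and 270 CPM in Doxo+Cyta, and 304, 302, 283 and 268 CPM in Doxo+Cyta+DAC. The STAT5A libraries with decitabine lay just below both NT libraries and within the range of the other relapses. Its log2 fold change relative to NT was -0.11, with a 95% interval of -0.36 to 0.15 (adjusted p = 0.483). Doxo replicate 4 lay apart from replicates 5 and 6 for STAT5A. Without replicate 4, STAT5A was called lower in Doxo relative to NT (-0.42 on the log2 scale, adjusted p = 0.0155) and higher in Doxo+Cyta+DAC than in Doxo (0.29, adjusted p = 0.0158), against -0.25 and 0.14 with all libraries, neither of them called. Because both genes are long and similar, and the authors left out fragments with several alignments, part of the signal of either gene may be missing from its count.

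In TPM, STAT5B gave 48.1% and 49.98% of the summed STAT5A and STAT5B level in NT and 46.6% to 53.1% in the 6 relapses without decitabine. In the 4 relapses with decitabine it gave 33.7%, 36.9%, 33.4% and 40.2%, so STAT5A was the higher of the pair per length in each of them. Means were 49.0 ± 1.36% in NT (n = 2) and 36.0 ± 3.18% in Doxo+Cyta+DAC (n = 4).

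**Figure D2:**
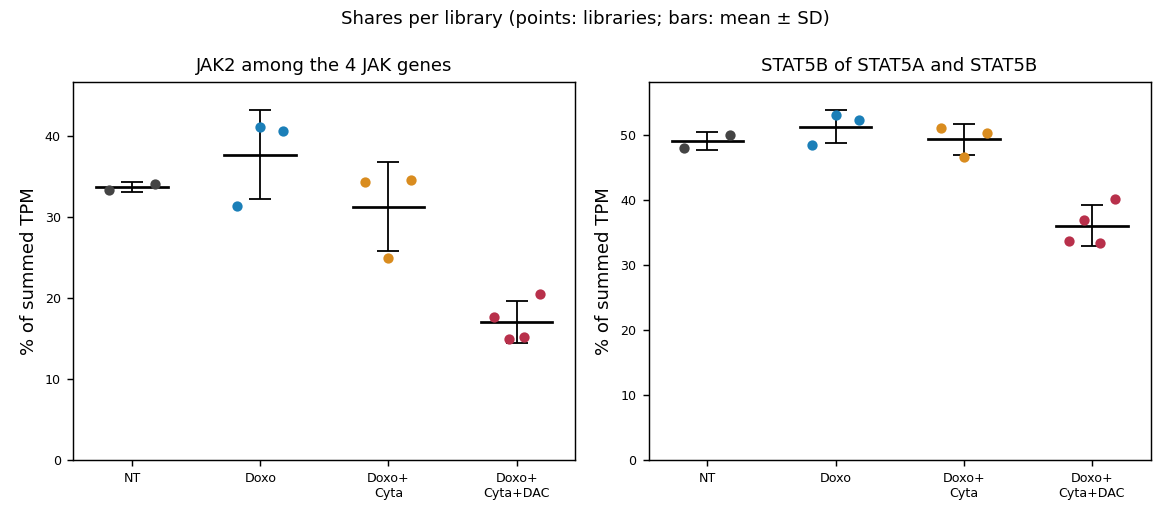
Share in percent of summed TPM (vertical axes, from 0) of JAK2 among JAK1, JAK2, JAK3 and TYK2 (left) and of STAT5B among STAT5A and STAT5B (right); points are libraries, bars the mean and whiskers the SD of each group. Doxo+Cyta+DAC libraries lie at 14.9% to 20.5% on the left and at 33.4% to 40.2% on the right, below the other 8 libraries in both panels.

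STAT3, which gp130 receptors activate, lies next to STAT5A (chr17:42313325-42388495, minus strand) and did not pass the test in any of the 6 comparisons. It measured 283 and 297 CPM in NT and 285, 338, 327 and 306 CPM in Doxo+Cyta+DAC, and the groups overlapped. Its log2 fold change was 0.12, with a 95% interval of -0.13 to 0.37 (adjusted p = 0.432). Of the other STAT genes, STAT2, which acts in type I interferon signalling, fell from 89.3 CPM in NT to 50.8 CPM in Doxo+Cyta+DAC, by -0.81 on the log2 scale (SE 0.13, adjusted p = 0.000161). STAT6, which interleukin-4 signalling activates, fell relative to Doxo+Cyta (-0.45, SE 0.09, adjusted p = 0.000874) and measured -0.09 relative to NT (adjusted p = 0.496). STAT4 had log2 fold changes of 0.54 and 0.41 relative to NT and Doxo+Cyta, neither of them called.

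SOCS3 rose in the Doxo+Cyta+DAC relapses and showed the largest log2 fold change of the 10 genes. It encodes an inhibitor that binds JAKs and the gp130 receptor (chr17:78356777-78360079, minus strand). The level was 6.28 and 5.30 CPM in NT, 7.68, 4.54 and 6.00 CPM in Doxo, and 5.81, 6.94 and 5.50 CPM in Doxo+Cyta. With decitabine it was 16.4, 24.8, 24.4 and 21.5 CPM. All 4 libraries with decitabine lay above the other 8, none of which exceeded 7.68 CPM. The counts behind these values were 78 to 122 per library without decitabine and 267 to 464 with it. That made SOCS3 3.75-fold higher than NT, or 1.91 on the log2 scale (SE 0.23, adjusted p = 2.93e-05), with log2 fold changes of 1.85 relative to Doxo and 1.84 relative to Doxo+Cyta (SE 0.20 for each).

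SOCS2 rose by less. It encodes an inhibitor best known from growth hormone signalling and is a STAT5 target (chr12:93569822-93576745, plus strand). It measured 37.6 and 35.7 CPM in NT, 36.5, 31.1 and 30.5 CPM in Doxo, 27.5, 39.8 and 34.2 CPM in Doxo+Cyta, and 60.4, 64.0, 40.7 and 49.0 CPM in Doxo+Cyta+DAC. The lowest library with decitabine, replicate 32, lay just above the highest without it, Doxo+Cyta replicate 20. Its level exceeded that of NT 1.46-fold, by 0.55 on the log2 scale (SE 0.19, adjusted p = 0.0268). That call was lost without NT replicate 1 (adjusted p = 0.108), NT replicate 2 (0.153), Doxo+Cyta+DAC replicate 30 (0.0638) or replicate 31 (0.0641), and with upper-quartile scaling (0.0630). SOCS2 was also called higher relative to Doxo (0.71, SE 0.17, adjusted p = 0.00213) and to Doxo+Cyta (0.66, SE 0.16, adjusted p = 0.00325).

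SOCS1, which inhibits JAK kinase activity directly, was low throughout (chr16:11254417-11256182, minus strand). It measured 8.44 and 8.28 CPM in NT, 7.33, 6.81 and 8.27 CPM in Doxo, 7.36, 13.7 and 8.01 CPM in Doxo+Cyta, and 3.98, 9.15, 4.09 and 5.31 CPM in Doxo+Cyta+DAC. Replicate 20 of Doxo+Cyta and replicate 31 of Doxo+Cyta+DAC lay above the rest of their groups. The log2 fold change was -0.79 relative to Doxo+Cyta (SE 0.28, adjusted p = 0.0250), and -0.46 (adjusted p = 0.163) without Doxo+Cyta replicate 20. The call was also lost without Doxo+Cyta+DAC replicate 30 (adjusted p = 0.0735), 32 (0.0744) or 33 (0.0519). Relative to NT the log2 fold change was -0.58 (adjusted p = 0.144), and without Doxo+Cyta+DAC replicate 31 it was -0.91 (adjusted p = 0.0112). Against Doxo it was -0.42 (adjusted p = 0.224), and -0.75 (adjusted p = 0.0163) without that library.

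CISH, the STAT5 target and inhibitor with 4 palindromes in the sequence above, lies at chr3:50606454-50611831 on the minus strand. It measured 43.5 and 40.3 CPM in NT, 47.0, 39.2 and 41.5 CPM in Doxo, 34.1, 45.0 and 30.7 CPM in Doxo+Cyta, and 38.2, 49.3, 42.2 and 45.2 CPM in Doxo+Cyta+DAC. The groups overlapped in every comparison. The log2 fold change relative to NT was 0.06, with a 95% interval of -0.28 to 0.40 (adjusted p = 0.772), in the libraries in which JAK2 and STAT5B were lower. Against Doxo+Cyta it was 0.26 (adjusted p = 0.127), and 0.43 (adjusted p = 0.00924) without Doxo+Cyta replicate 20. The STAT5 targets SOCS2 and PIM1 had log2 fold changes of 0.55 and -0.12 relative to NT in those libraries. SOCS2 was called higher, a call lost in the fits given above, and PIM1 was not called.

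PIM1, a serine/threonine kinase and STAT target, was the most abundant of the 10 genes per length in every group (chr6:37170146-37175428, plus strand). It measured 664 and 673 CPM in NT, 673, 673 and 714 CPM in Doxo, 754, 762 and 662 CPM in Doxo+Cyta, and 555, 608, 702 and 596 CPM in Doxo+Cyta+DAC. Doxo+Cyta+DAC replicate 32 lay above both NT libraries and the other 3 lay below them. The log2 fold change relative to NT was -0.12, with a 95% interval of -0.35 to 0.11 (adjusted p = 0.368). Against Doxo+Cyta it was -0.24 (SE 0.09, adjusted p = 0.0397), a call lost in 7 of the 12 fits that each left out 1 library, with adjusted p from 0.0559 to 0.117. The libraries whose removal ended it were NT replicates 1 and 2, Doxo+Cyta replicates 19 and 20, and Doxo+Cyta+DAC replicates 30, 31 and 33.

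In all, 4 of the 10 genes were called relative to NT in the Doxo+Cyta+DAC relapses (JAK2 and STAT5B lower, SOCS2 and SOCS3 higher), where 48.7% of all tested genes were called, 24.9% higher and 23.7% lower. Relative to Doxo the same 4 genes were called, against 59.5% of all tested genes, and relative to Doxo+Cyta 6 were called (those 4, SOCS1 and PIM1), against 60.3%. Libraries did not overlap for 5, 4 and 4 of the 10 genes in these comparisons, and for 67.1%, 60.0% and 57.2% of all tested genes. With a fold change over 2 as well, JAK2 and SOCS3 were called in all 3 comparisons, where 19.2%, 24.1% and 25.7% of tested genes met the same rule. The median log2 fold change of the 10 genes relative to NT was -0.10, against 0.02 over all tested genes.

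Without decitabine, none of the 10 genes was called. edgeR called 0 of them in Doxo relative to NT (10.7% of all tested genes), 0 in Doxo+Cyta relative to NT (1.46%) and 0 in Doxo+Cyta relative to Doxo (3.4%). The counts were also 0 at an unadjusted p under 0.05 and 0 by DESeq2. Their log2 fold changes relative to NT lay between -0.25 and 0.26 in Doxo and between -0.20 and 0.21 in Doxo+Cyta.

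**Figure D3:**
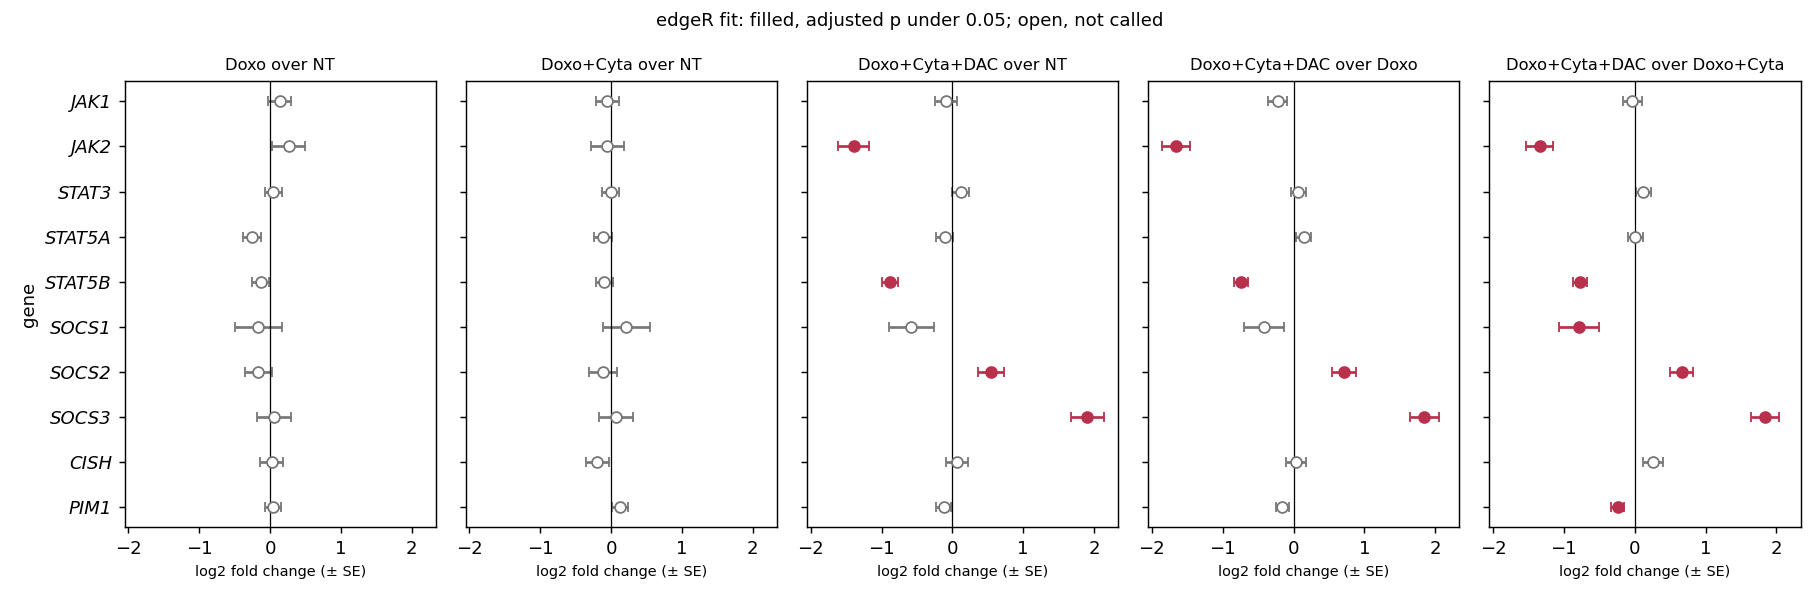
Log2 fold change (horizontal axes, edgeR, whiskers ± SE) of the 10 genes in 5 comparisons; filled points have an adjusted p under 0.05. JAK2 (-1.40, -1.66 and -1.34) and SOCS3 (1.91, 1.85 and 1.84) lie farthest from 0 in the 3 right panels, and no point is filled in the 2 left panels.

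Ranked by TPM, the order in NT was PIM1 (574 ± 30.2), JAK2 (187 ± 18.4), STAT5A (161 ± 3.45), STAT5B (155 ± 11.8), JAK1 (153 ± 12.04), STAT3 (136 ± 10.4), CISH (42.9 ± 0.410), SOCS2 (21.7 ± 0.138), SOCS1 (16.0 ± 0.483) and SOCS3 (4.90 ± 0.372). Of neighbours in that order, STAT5A and STAT5B, STAT5B and JAK1, and JAK1 and STAT3 did not differ beyond their spread. In Doxo+Cyta+DAC the order was PIM1 (495 ± 56.9), STAT5A (140 ± 8.31), STAT3 (137 ± 10.1), JAK1 (134 ± 7.28), STAT5B (79.0 ± 7.49), JAK2 (66.5 ± 8.45), CISH (41.9 ± 3.92), SOCS2 (29.6 ± 5.55), SOCS3 (17.3 ± 3.07) and SOCS1 (10.0 ± 4.11). STAT5A, STAT3 and JAK1 lay within their spread of each other there, and so did STAT5B and JAK2. JAK2 moved from the second place to the sixth, and SOCS3 and SOCS1 exchanged the last places. In Doxo and Doxo+Cyta, JAK2 stood second at 200 ± 42.2 and 161 ± 59.2 TPM, with spreads that reached the level of JAK1.

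EPOR, CSF2RB and CSF3R, receptor chains best known for signalling through JAK2 in blood cells, were lower or did not pass the test. EPOR, the erythropoietin receptor, measured 52.7 and 47.5 CPM in NT and 40.5, 35.4, 39.4 and 46.4 CPM in Doxo+Cyta+DAC (-0.31 on the log2 scale, SE 0.16, adjusted p = 0.128). The EPOR groups did not overlap, and the gene was called lower with only the groups compared (adjusted p = 0.0256) and without Doxo replicate 4 (adjusted p = 0.0364). Relative to Doxo+Cyta the gene was called lower (-0.50, SE 0.14, adjusted p = 0.00786). CSF2RB, the common beta chain of the GM-CSF, interleukin-3 and interleukin-5 receptors, fell from 96.5 and 112 CPM to 35.0, 37.0, 48.5 and 43.8 CPM (-1.34, SE 0.18, adjusted p = 5.23e-05). CSF3R, the G-CSF receptor, fell from 4.87 to 1.67 CPM on average (-1.54, SE 0.26, adjusted p = 0.000364). IL6ST, the gp130 chain, had a log2 fold change of 0.31 (SE 0.30, adjusted p = 0.411).

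Other receptors rose. IL7R, the interleukin-7 receptor chain, measured 1.85 and 1.97 CPM in NT and 12.01, 17.6, 16.4 and 13.9 CPM in Doxo+Cyta+DAC (2.97 on the log2 scale, SE 0.30, adjusted p = 6.28e-06). All 4 libraries with decitabine lay above the other 8, of which the highest measured 4.13 CPM. OSMR, the oncostatin M receptor, rose relative to NT (2.38, SE 0.50, adjusted p = 0.00143) but was also higher in Doxo (2.60, adjusted p = 0.00801), the latter a call lost without NT replicate 1 (adjusted p = 0.112) or NT replicate 2 (0.0907). Of 33 receptor genes listed, 26 were tested. Relative to NT in Doxo+Cyta+DAC, 4 were higher, 8 lower and 14 not called, with a median log2 fold change of 0.07. Of all tested genes, 48.7% were called in that comparison. Relative to Doxo, 3 were higher, 15 lower and 8 not called, with a median of -0.61, where 59.5% of all tested genes were called. Relative to Doxo+Cyta, 5 were higher, 11 lower and 10 not called, where 60.3% of all tested genes were called. IL2RG, the common gamma chain, fell from 424 to 156 CPM in that comparison (-1.45, SE 0.11, adjusted p = 3.02e-07). IL12RB2, an interleukin-12 receptor chain, rose from 0.652 to 1.74 CPM (1.40, SE 0.45, adjusted p = 0.0152). The IL12RB2 call was lost without Doxo+Cyta replicate 22 (adjusted p = 0.0758). Of 26 ligand genes 7 were tested, and 0 were called relative to NT by the main edgeR fit, where 48.7% of all tested genes were called. Relative to Doxo 1 was higher and 2 lower, where 59.5% of all tested genes were called. Relative to Doxo+Cyta 1 was higher and 1 lower, where 60.3% of all tested genes were called. The lower was TSLP (-1.16, SE 0.32, adjusted p = 0.00575), a cytokine whose receptor includes the IL7R chain. TSLP was called lower relative to NT with only the groups compared (-0.65, adjusted p = 0.0491) and without Doxo replicate 4 (-0.64, adjusted p = 0.0342).

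**Figure D4:**
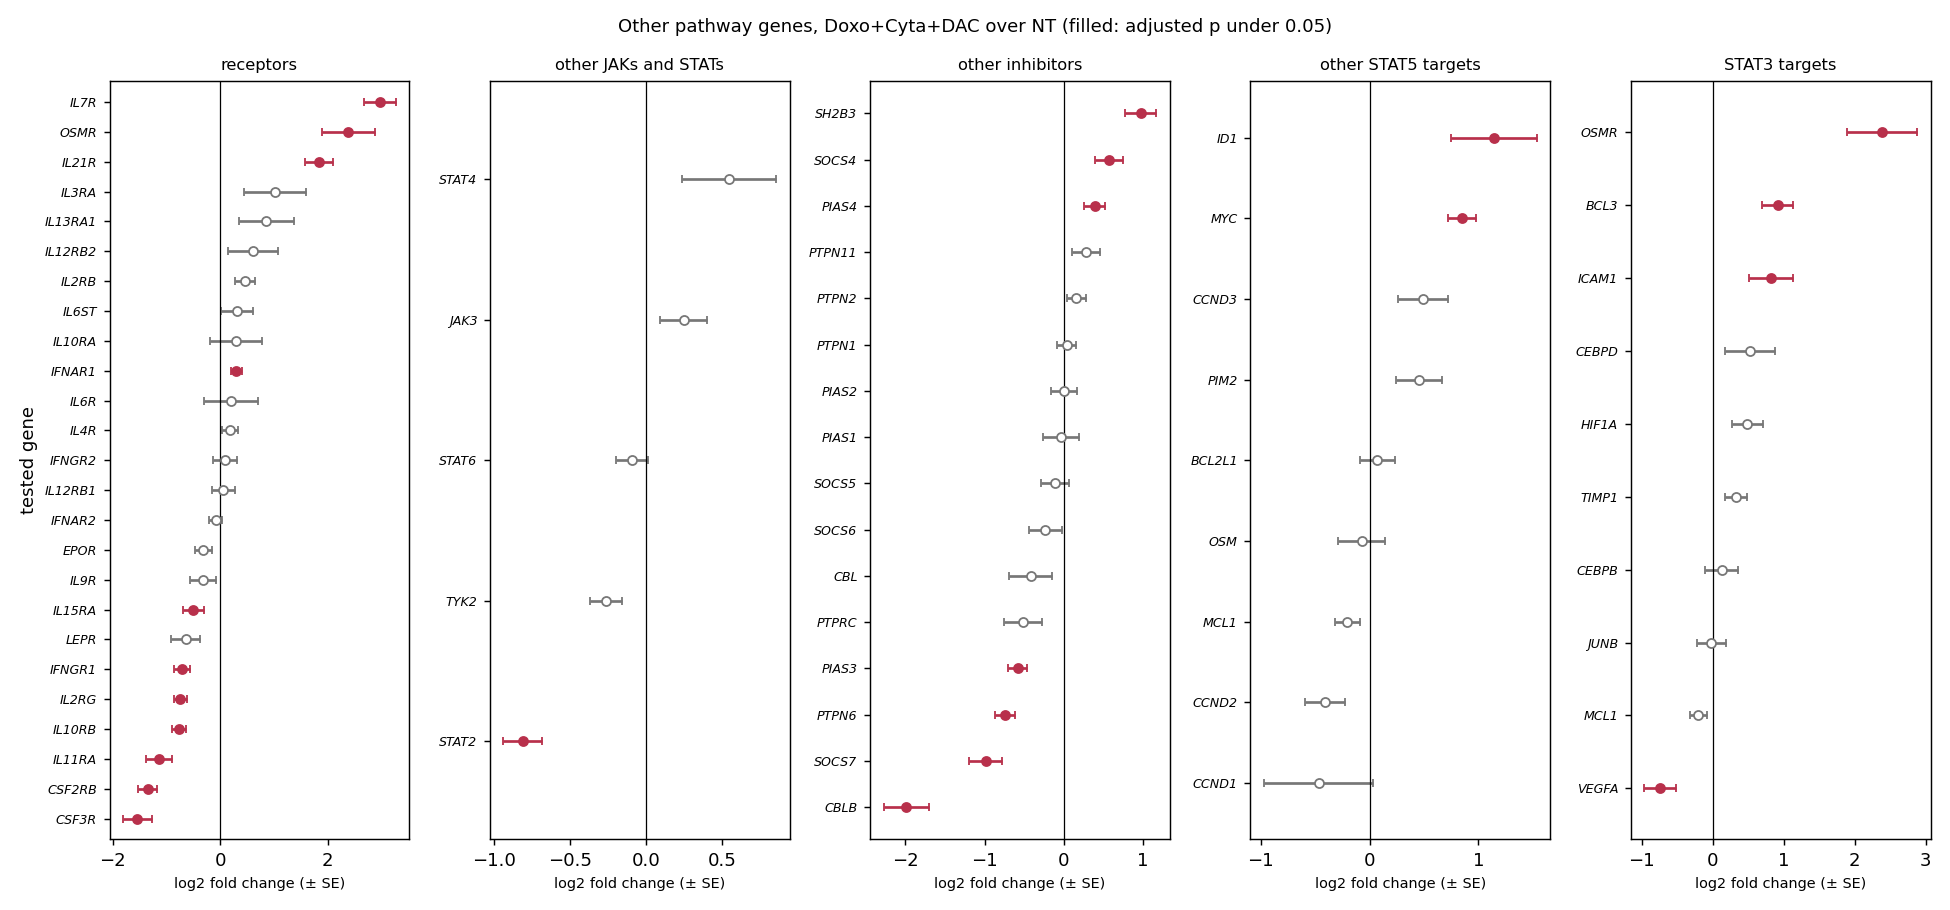
Log2 fold change in Doxo+Cyta+DAC relative to NT (horizontal axes, edgeR, whiskers ± SE; scales differ between panels) of tested receptors, other JAK and STAT genes, other inhibitors, other STAT5 targets and STAT3 targets; filled points have an adjusted p under 0.05. IL7R (2.97) lies highest and CSF3R (-1.54) lowest among receptors, and CBLB (-1.99) lowest among inhibitors.

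Among 16 other inhibitors, all tested, 3 were higher, 4 lower and 9 not called in Doxo+Cyta+DAC relative to NT, with a median of -0.07. That is 7 of 16, where 48.7% of all tested genes were called. SH2B3 (LNK), an adaptor that restrains JAK2, rose from 118 and 161 CPM in NT to 220, 308, 298 and 265 CPM (0.97, SE 0.20, adjusted p = 0.00128). It measured 287, 186 and 179 CPM in Doxo, so those libraries overlapped with the ones with decitabine. SOCS4 rose from 29.6 to 43.9 CPM (0.57, SE 0.18, adjusted p = 0.0177), a call lost without NT replicate 1 (adjusted p = 0.177). PTPN6, the phosphatase SHP-1 that dephosphorylates JAKs and the erythropoietin receptor, fell from 219 and 202 CPM to 141, 101, 130 and 132 CPM (-0.74, SE 0.12, adjusted p = 0.000287). CBLB, a ubiquitin ligase, fell from 10.1 to 2.55 CPM (-1.99, SE 0.28, adjusted p = 8.98e-05), and SOCS7 from 29.3 to 14.8 CPM (-0.99, SE 0.21, adjusted p = 0.00161). Relative to Doxo, 1 was higher and 6 lower, with a median of -0.31, where 59.5% of all tested genes were called. Relative to Doxo+Cyta, 3 were higher and 4 lower, where 60.3% of all tested genes were called.

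Of 11 other STAT5 targets 9 were tested, and relative to NT 2 were higher, 0 lower and 7 not called, with a median of 0.07, where 48.7% of all tested genes were called. Against Doxo+Cyta as the reference, 3 were higher and 1 lower, with a median of 0.23, where 60.3% of all tested genes were called. Relative to Doxo, 3 were higher and 2 lower, with a median of -0.13, where 59.5% were called. MYC, a growth regulator under many inputs, measured 275 and 283 CPM in NT, 273, 224 and 216 CPM in Doxo, 174, 217 and 172 CPM in Doxo+Cyta and 504, 455, 512 and 540 CPM in Doxo+Cyta+DAC. The MYC libraries with decitabine lay above all others (0.85 relative to NT, SE 0.13, adjusted p = 0.00016, and 1.42 relative to Doxo+Cyta). ID1, an inhibitor of differentiation factors, rose from 22.4 to 49.3 CPM (1.14, SE 0.39, adjusted p = 0.0263), a call lost without NT replicate 1 (adjusted p = 0.115), NT replicate 2 (0.140) or Doxo+Cyta+DAC replicate 32 (0.0603). PIM2, BCL2L1 (the survival factor BCL-XL) and CCND2 (cyclin D2) had log2 fold changes of 0.45, 0.07 and -0.41 relative to NT, none of them called, although CCND2 was in 6 of the 21 alternative fits. PIM2 was called higher with only the groups compared (adjusted p = 0.0228) and without Doxo replicate 4 (adjusted p = 0.0485). Over Doxo+Cyta, PIM2 was called higher without Doxo+Cyta replicate 20 (0.49, adjusted p = 0.0398) and not with all libraries. CCND2 was also called lower relative to Doxo+Cyta (-0.60, SE 0.16, adjusted p = 0.00624).

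Of 10 STAT3 targets, all tested, 3 were higher and 1 lower in Doxo+Cyta+DAC relative to NT, with a median of 0.41. Of all tested genes, 48.7% were called in that comparison. BCL3 rose from 42.9 to 80.8 CPM (0.91, SE 0.21, adjusted p = 0.00315) and VEGFA fell from 87.1 to 52.1 CPM (-0.74, SE 0.22, adjusted p = 0.0126). The VEGFA call was lost without either NT replicate (adjusted p = 0.0622 and 0.0719). Relative to Doxo, 1 was higher and 5 lower, where 59.5% of all tested genes were called. Relative to Doxo+Cyta, 1 was higher and 3 lower, where 60.3% of all tested genes were called. TIMP1 had a log2 fold change of -0.41 there (adjusted p = 0.0148), which became -0.19 (adjusted p = 0.0718) without Doxo+Cyta replicate 20. TIMP1 was called higher relative to NT without that library (0.31, adjusted p = 0.0111) and with only the groups compared (0.29, adjusted p = 0.0118).

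Erythroid and megakaryocytic markers were present, and those that passed the test were lower in the same libraries. Of 11 listed, 10 were tested and PF4 had at most 3 counts in every library. Their summed level was 9257 to 10335 CPM in NT, 9997 to 10891 CPM in Doxo, 11042 to 11851 CPM in Doxo+Cyta and 6927 to 9436 CPM in Doxo+Cyta+DAC. The Doxo+Cyta+DAC range overlapped with that of NT. Relative to NT, 5 were lower and 0 higher with decitabine, where 48.7% of all tested genes were called and 23.7% were lower. Among the 5 were GP9, a platelet glycoprotein (-2.12, SE 0.22, adjusted p = 7.86e-06), and KLF1, an erythroid transcription factor (-0.71, SE 0.15, adjusted p = 0.00151). Relative to Doxo, 6 were lower and 0 higher, where 59.5% of all tested genes were called. Relative to Doxo+Cyta, 8 were lower and 0 higher, where 60.3% of all tested genes were called and 30.5% were lower. GATA1, a transcription factor of both lineages, fell from 367 CPM in Doxo+Cyta to 182 CPM (-1.01, SE 0.10, adjusted p = 1.72e-06). The part of these lineage markers in the levels of JAK2, STAT5B and EPOR was not tested. Of 8 markers of lymphoid, stromal and endothelial cells, CD3E, CD3D, MS4A1 and COL1A2 were among those with at most 3 counts in every library. Their summed level was 164 to 176 CPM in NT and 128 to 149 CPM in Doxo+Cyta+DAC. PECAM1, which megakaryocytic cells also express, measured 133 and 131 CPM in these groups, and PDGFRB fell from 36.9 to 7.29 CPM (-2.33, SE 0.15, adjusted p = 3.36e-07).

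The genes with the level pattern most like that of JAK2 across the 12 libraries were TNRC6B (Pearson r = 0.995 of log2 CPM), PCMTD1 (0.994) and LYST (0.994), of 10520 genes searched with a mean of at least 5 CPM. The points share libraries and depth, and the exon lengths of TNRC6B (18695 bases), PCMTD1 (4394 bases) and LYST (16733 bases) exceed the median of 3166 bases over tested genes. Without Doxo+Cyta replicate 20, r was 0.995, 0.994 and 0.994 over 11 libraries. For CISH the closest were GPANK1 (0.813), MRPS17 (0.798) and MAF1 (0.792), with exon lengths of 24490, 585 and 1775 bases. For JAK2 and CISH alike, r includes the differences between groups, and r within groups was not tested.

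The genes around JAK2 on chromosome 9 that passed the test were lower. This set was chosen after the values were seen. Of 13 other tested genes that start within 1000 kb, 5 were lower, 0 higher and 8 not called in Doxo+Cyta+DAC relative to NT, with a median log2 fold change of -0.26. Of all tested genes, 24.9% were higher and 23.7% lower in that comparison. RCL1, the nearest tested gene on one side, had a log2 fold change of -0.14 (adjusted p = 0.248), and CD274, which encodes PD-L1, one of 0.32 (adjusted p = 0.291). RLN2, the nearest on the other side, was lower (-0.94, SE 0.27, adjusted p = 0.0106), as was its near-identical neighbour RLN1 (-2.01, SE 0.62, adjusted p = 0.0156) at a mean of 0.712 CPM over the 12 libraries. These relaxin genes share sequence and their counts are uncertain. PPAPDC2 (-0.59, SE 0.17, adjusted p = 0.00969) and CDC37L1-AS1 (-0.55, SE 0.20, adjusted p = 0.0365) were the other lower genes besides ERMP1. PPAPDC2 was also called lower by edgeR in Doxo relative to NT (-0.80, SE 0.18, adjusted p = 0.0140), where JAK2 was not called (0.26). ERMP1, an endoplasmic reticulum peptidase at a distance of 848 kb, was lower by about as much as JAK2 (-1.24, SE 0.17, adjusted p = 8.33e-05). Relative to Doxo+Cyta, 7 of the 13 were lower and 0 higher, with a median of -0.29, RCL1 among the lower (-0.29, adjusted p = 0.0080). Of all tested genes, 29.8% were higher and 30.5% lower in that comparison. Whether these genes and JAK2 were lower for a shared reason was not tested.

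**Figure D5:**
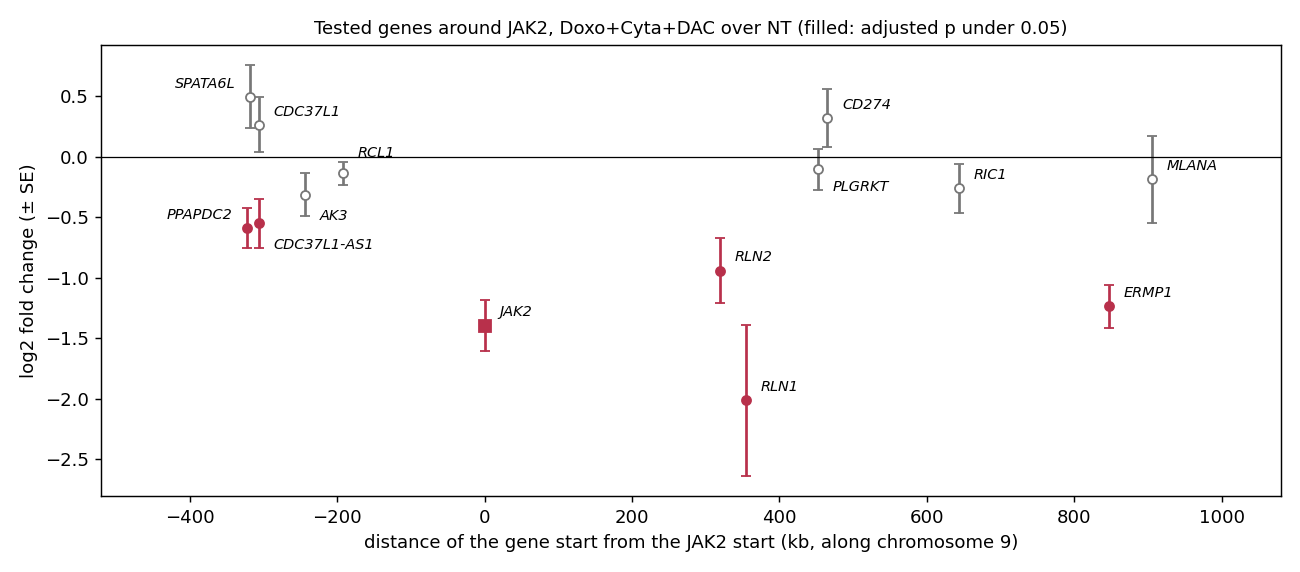
Log2 fold change in Doxo+Cyta+DAC relative to NT (vertical axis, edgeR, whiskers ± SE) of tested genes against the distance of their start from the JAK2 start in kb; filled points have an adjusted p under 0.05 and the square is JAK2. JAK2 (-1.40), RLN1 (-2.01), ERMP1 (-1.24), RLN2 (-0.94), PPAPDC2 (-0.59) and CDC37L1-AS1 (-0.55) are filled and lie below 0, while RCL1 (-0.14), PLGRKT (-0.10) and CD274 (0.32) lie near 0.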

How the data were processed

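RNA from 12 HEL cell samples was sequenced from TruSeq libraries as paired-end reads. The authors checked reads with FastQC, filtered them with fastx-toolkit and perl scripts, aligned them to GRCh38 with Bowtie2 2.2.8 and counted fragments per gene with featureCounts 1.6.0, without regard to strand and dropping fragments with several alignments or with more than 1 overlapping gene. The deposited values are these raw counts, not normalized, with a summed exon length per gene. Strand was not used, so antisense reads are included. The exons of JAK1 shared 9 bases with RAVER2, and the other 9 genes overlapped no annotated gene.

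Groups were taken from the sample labels. The series text names 3 untreated replicates, and 2 are labelled and were used. Replicates are described as biological. Of 26485 genes, 4 missing a count were left out. No library duplicated another of its group (smallest chi-square per gene, 3.10), and pairs across groups were not compared. Tests used edgeR 4.0.16 under R 4.3.3 (filterByExpr, TMM, 1 quasi-likelihood fit of all 12 samples, two-sided tests, Benjamini-Hochberg adjustment over 14164 tested genes in each of 6 comparisons, called at an adjusted p under 0.05). TPM divide counts by exon length. Similarity used log2 CPM with a prior count of 2. Scripts were tested on simulated data. Other steps used Python 3.11.15, numpy 2.4.6, pandas 2.3.3 and matplotlib 3.10.9.

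Alternatives were DESeq2 1.42.0, RLE and upper-quartile scaling, no filter, at least 10 counts in every sample, only the groups compared, an adjusted p under 0.01, a fold change over 2, equal depth and leaving out each replicate. Offsets for exon length and for length and GC content (12941 tested genes with a GC value) were chosen after seeing the data. Windows were read from GRCh38 at the deposited gene starts, and the comparison windows are RefSeq promoters, in which 9 of the 10 symbols matched.

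The 10 genes and the other lists were chosen with earlier results of these data known. Other genes named are EPOR, CSF2RB, CSF3R, IL6ST, JAK3, TYK2, STAT2, STAT4, STAT6, SH2B3, PTPN6, PIM2, BCL2L1, MYC and CCND2 whatever their values. From each other list the 2 genes per direction with the largest log2 fold change in Doxo+Cyta+DAC relative to NT and to Doxo+Cyta were added, if called, at 1 CPM or more in the higher group and without overlap, and the 3 genes most like JAK2 and CISH. Some genes that this rule names, and some sequences, are not reported here.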

Additional observations from a re-analysis of the deposited data

How the results depend on the processing

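The calls of JAK2, STAT5B and SOCS3 in the 3 comparisons of Doxo+Cyta+DAC kept their direction and their side of the threshold under all 21 alternative fits that were refitted, with log2 fold changes relative to NT from -1.48 to -1.33, from -0.96 to -0.81 and from 1.79 to 2.03. With a fold change over 2 as a further rule, 2 genes were called relative to NT, 2 relative to Doxo and 2 relative to Doxo+Cyta. Leaving out 1 library gave 0 to 1 called genes in Doxo relative to NT (1 without Doxo replicate 4), 3 to 4 in Doxo+Cyta+DAC relative to NT, 4 to 5 relative to Doxo and 4 to 6 relative to Doxo+Cyta, and 0 in the other comparisons. Across the 10 genes and their 6 comparisons, 24 values lost a call, 10 gained one and 60 that were not called changed sign. Beside those given with SOCS1, SOCS2, CISH, PIM1 and STAT5A, calls were gained by JAK1 relative to Doxo with only the groups compared (adjusted p = 0.0492) and with length and GC offsets (0.0488), by SOCS1 relative to NT with the length offset (0.0494) and by CISH relative to Doxo+Cyta with length and GC offsets (0.0137). SOCS1 relative to Doxo+Cyta lost its call with those offsets (0.132) and with only the groups compared (0.0558), and so did PIM1 (0.0746 and 0.0727), also without a filter (0.0754); the cause was not tested. No paired analysis was possible because the groups share no replicate number. Over all tested genes, the 1515 called in Doxo relative to NT became 3137 without Doxo replicate 4, 462 and 500 without replicates 5 and 6, 81 and 105 without NT replicates 1 and 2, 2585 without Doxo+Cyta replicate 20, and 2408 with length and GC offsets. The 207 in Doxo+Cyta relative to NT ranged from 0 without either NT replicate to 828 with DESeq2, with 13 in a fit of only those groups. The 481 in Doxo+Cyta relative to Doxo ranged from 67 in a fit of only those groups to 917 with DESeq2, and the 6893 in Doxo+Cyta+DAC relative to NT became 4461 and 4591 without NT replicates 1 and 2. Leaving out an NT replicate leaves 1, assumed to vary like the other groups. SOCS1 and SOCS3 rest on the fewest counts, 65 to 206 and 78 to 464 per library.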

Other observations

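Some pathway genes outside the 10 differed from NT in the Doxo relapses, in which none of the 10 was called. STAT6 had a log2 fold change of 0.43 (SE 0.11, edgeR adjusted p = 0.0277), a call lost without NT replicate 1 (adjusted p = 0.227), NT replicate 2 (0.164), Doxo replicate 5 (0.11) or Doxo replicate 6 (0.11), and with no filter on low counts (0.082). Of 10 STAT3 targets 5 were higher in Doxo than in NT and 0 lower, where 10.7% of all tested genes were called in either direction. These were OSMR (2.60), JUNB (1.25), CEBPB (0.95), MCL1 (0.76) and TIMP1 (0.66), of which JUNB, CEBPB and MCL1 are named after their values were seen. The count was 0 of 10 without NT replicate 1, 1 of 10 (MCL1) without NT replicate 2, and 3 of 10 without Doxo replicate 5 or without Doxo replicate 6, where CEBPB and TIMP1 were no longer called. STAT3 itself had a log2 fold change of 0.05 in that comparison. In Doxo+Cyta relative to NT, TIMP1 was called higher (0.74, adjusted p = 0.0428) and MYC lower (-0.57, adjusted p = 0.0489). Both calls were lost without NT replicate 1 (adjusted p = 0.243 and 0.254) or NT replicate 2 (0.469 and 0.459), and also without Doxo replicate 5, Doxo replicate 6 or Doxo+Cyta replicate 19, among other fits. Whether these responses differ between the 2 regimens was not tested beyond the direct comparison. There, 2 of the 10 STAT3 targets were lower and 0 higher in Doxo+Cyta than in Doxo, where 3.4% of all tested genes were called.

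Around STAT5B, a set chosen after the values were seen, 50 other tested genes start within 1000 kb on chromosome 17. Relative to NT, 11 were higher, 21 lower and 18 not called in Doxo+Cyta+DAC, with a median log2 fold change of -0.19. Over all tested genes, 24.9% were higher and 23.7% lower in that comparison.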
